A study of Homo sapiens with 4 samples.

Results

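The genes described here are 37 cytosolic and mitochondrial chaperones, chosen by their names from the 60651 genes in the deposited tables. They are the 8 subunits of the CCT chaperonin, the 6 subunits of prefoldin, 6 genes of the HSP70 family, 3 of the HSP90 family, the 2 subunits of the mitochondrial chaperonin, 5 J-domain proteins, 5 co-chaperones of HSP90, and HSPB1 and BAG2. The series holds ribosome footprints of 4 human lines of leukemia cells, 1 library per line: K562, grown in IMDM, THP-1, grown in RPMI1640 with 2-mercaptoethanol, a library labelled MOLM13, grown in DMEM, and HL60, grown in IMDM. No line received a treatment per the labels, and cycloheximide was present in the lysis buffer of all. K562 was derived from chronic myeloid leukemia at blast crisis, THP-1 and MOLM13 from acute monocytic leukemias, and HL60 from an acute promyelocytic leukemia. With 1 library per line there is no replicate, so no difference below was tested and intervals cover counting error only. In a bulk lysate, fewer expressing cells, less mRNA per cell and fewer ribosomes per mRNA cannot be told apart.

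Chaperones hold unfolded proteins in solution and release them for folding, mostly at the cost of ATP. HSP70 binds short hydrophobic stretches of clients brought by J-domain proteins, and HSP90 acts later, on kinases and steroid receptors, in a cycle set by its co-chaperones. The CCT chaperonin, also called TRiC, is a double ring in which each subunit occurs once per ring, and it folds actin and tubulin handed over by prefoldin. Inside mitochondria, HSPA9, TRAP1 and the ring of HSPD1 with its lid HSPE1 do the corresponding work. Some of these genes are constitutive, while others, HSPA1A and HSPA1B above all, are induced by heat shock factors under proteotoxic stress.

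The libraries held between 344 and 973 Mb of aligned bases, and dividing by a footprint of 29 bases gives the footprint equivalents used for intervals. Protein-coding genes took 75.7 to 87.1% of the aligned bases. Of the marker genes checked, 5 of 6 erythroid genes exceeded a scaled TPM of 1 in K562, and all 5 granulocyte and all 5 monocyte genes did so in both HL60 and THP-1. The library labelled MOLM13 had 5 of 5 granulocyte and 4 of 5 monocyte genes above 1 but at low levels, with a summed scaled TPM of 32.1 for the granulocyte genes, against 9249 in HL60 and 8243 in THP-1. It had 2 of 4 progenitor genes above 1, and several single genes went against its label. FLT3, the receptor that is mutated in MOLM13, was listed at 0 there, as was the macrophage marker CD68, the myeloid antigen CD33 had a scaled TPM of 5.46, and the progenitor antigen CD34 had 194. In the same library CD3D, a subunit of the T cell receptor complex, had 891, against 49.0 in K562, 3.88 in THP-1 and 3.37 in HL60. The file deposited for that library also carries another name than its label. The library is therefore called the library labelled MOLM13, or the MOLM13-labelled library, throughout. The group sums, the calls and most of the wider ranges in scaled TPM that rest on this library are also given without it.

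Levels are given as scaled TPM, the authors' TPM (a length-corrected share of the transcripts of a library) summed per gene and divided by a factor per library, so that the median gene is alike in the 4 lines. A second measure, coding coverage, is the scaled mean depth at the coding positions of a gene, summed over all annotated transcripts of the strand. The depth used was the mean over each exon, untranslated bases included, so this measure still depends in part on the transcript assigned. The 2-fold rule compares log2(scaled TPM + 1): high means 1 or more over the next line, and low means 1 or more under the next line, with at least 600 aligned bases behind the higher values.

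By this 2-fold rule 6 of the 37 members (16.2%) were called in any line, beside 37.6% of the 12582 protein-coding genes with enough signal and 32.0% of those with a mean scaled TPM of at least 10. PFDN1 and PFDN5 were low in the MOLM13-labelled library, where 3.20% of coding genes were low. HSPA1A was high in K562, beside 5.13% of coding genes. HSPA1B and HSPB1 were low in HL60, beside 5.25%. FKBP4 was low in THP-1, beside 1.86%, and HSPB1 was high there, beside 8.29%. By coding coverage the call remained for PFDN1, HSPA1B, FKBP4 and HSPB1, 4 of 37 (10.8%), beside 28.9% of coding genes and 25.8% of those with a mean of at least 10. At a 4-fold distance PFDN1 and PFDN5 were left, beside 14.1% of coding genes, and at 1.5-fold 13 members were called, beside 62.4%. With the MOLM13-labelled library left out, 6 members were called beside 46.6% of coding genes. PFDN1 and PFDN5 were then no longer among them, and CCT5 and DNAJB6 were, both low in K562.

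All 37 members had at least 600 aligned bases in some line and 35 were above 0 in all 4. The highest line exceeded the lowest by a median of 1.90-fold over the members, compared with 2.98-fold over the tested coding genes and 2.64-fold over those with a mean of at least 10. The 14 subunits of the 20S proteasome core, set beside them, had a median log2 range of 0.58 with 0 genes called, and the 16 chaperones of the endoplasmic reticulum had 1.44 with 3 called, beside 0.93 for the members. By coding coverage the proteasome subunits had 0.85 and the members 0.89, so the difference between them was seen mainly in scaled TPM, while the endoplasmic reticulum chaperones had 1.497 and coding genes 1.30. K562 was the highest line for 19 members, HL60 for 10, the MOLM13-labelled library for 5 and THP-1 for 3. The median member lay 0.40 above the mean of the other 3 lines on the log2 scale in K562, 0.03 below it in the MOLM13-labelled library, 0.23 below it in THP-1 and 0.24 below it in HL60, beside medians of -0.11, 0.08, 0.04 and -0.19 over all tested coding genes. With deposited TPM the median coding gene was shifted by -0.35 in K562 and the median member was at 0.06, and the number of members highest in K562 fell to 7, while HL60 had 13.

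**Figure D1:**
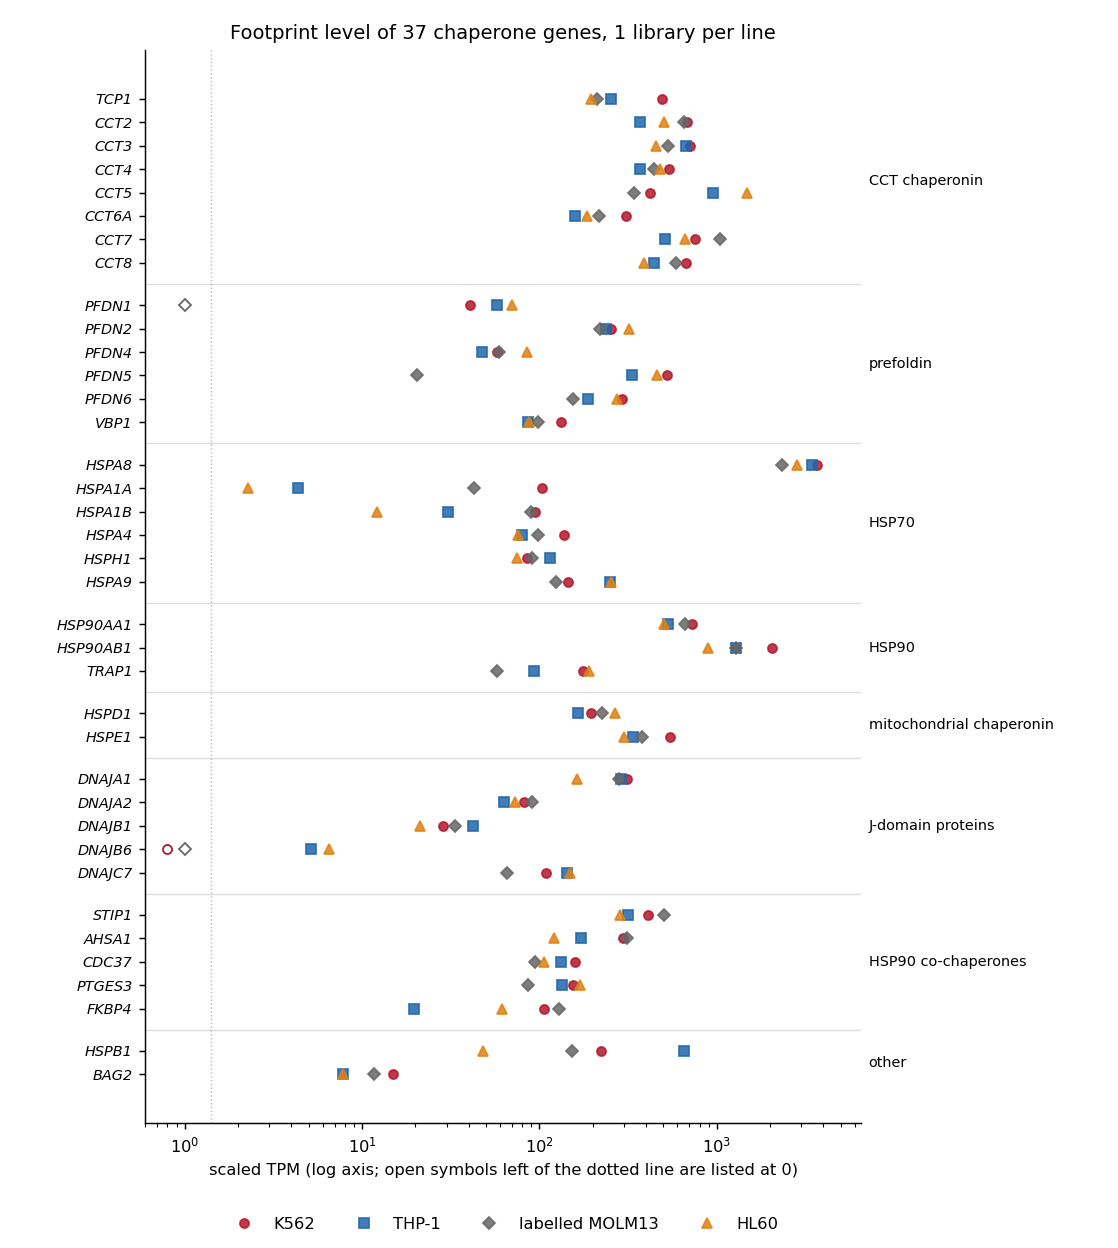
Scaled TPM of each of the 37 chaperone genes in the 4 libraries, 1 symbol per library, on a log axis, with genes grouped by family and values listed at 0 drawn as open symbols. In 22 of the 37 rows the highest line is under 2-fold above the lowest. The widest rows are PFDN1, PFDN5, HSPA1A, HSPB1, DNAJB6, HSPA1B, FKBP4 and CCT5, with PFDN1 and DNAJB6 listed at 0 in 1 library or more.

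The members together took 3.38% of the aligned bases on protein-coding genes in K562, 2.54% in the MOLM13-labelled library, 2.37% in HL60 and 2.32% in THP-1. The CCT chaperonin was the largest of the 7 groups in K562, at 1.05% of the coding signal, in the MOLM13-labelled library, at 0.815%, and in HL60, at 0.788%. In THP-1 HSP70 took 0.668% and the CCT chaperonin 0.665%, with Wilson 95% intervals of 0.665 to 0.672% and 0.662 to 0.669% that overlap. HSP90 stood highest in K562 at 0.913%, against 0.6004% in the MOLM13-labelled library, 0.513% in THP-1 and 0.449% in HL60. These are shares of the coding signal of each library and are not scaled to the median gene. With aligned bases scaled to the median gene, HL60 was highest for the CCT chaperonin, prefoldin and HSP70, and K562 for HSP90.

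**Figure D2:**
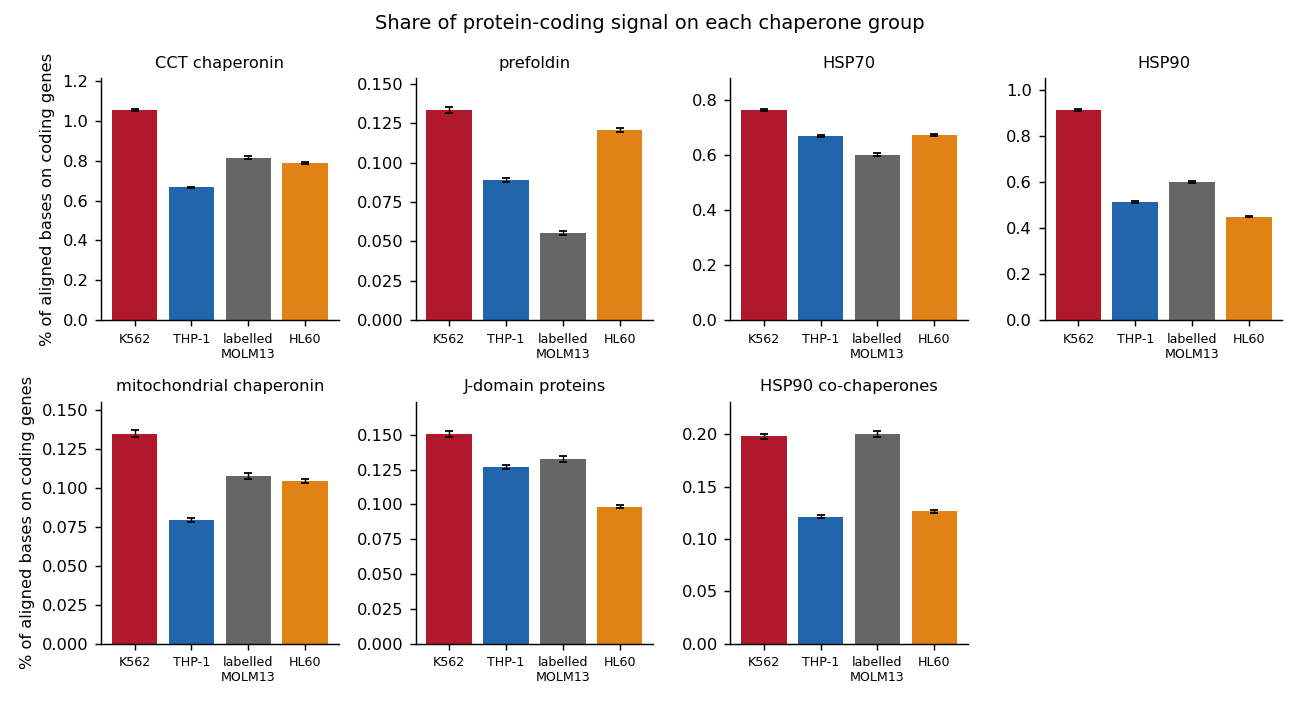
Share of the aligned bases on protein-coding genes that fell on each of 7 chaperone groups, by library, as bars from 0 with Wilson 95% intervals for counting error. K562 is highest for 6 groups, and its HSP90 bar stands at 0.913%, against 0.449% for HL60. The shares are not scaled to the median gene, and HL60 leads for the CCT chaperonin, prefoldin and HSP70 when aligned bases are so scaled.

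The 8 CCT subunits summed to a scaled TPM of 4573 in K562, 4344 in HL60, 4030 in the MOLM13-labelled library and 3723 in THP-1. The highest line exceeded the lowest by 1.23-fold, and this order depends on the scaling, because with deposited TPM HL60 was highest and K562 was only 0.02 above THP-1 on the log2 scale. HL60 was also highest by aligned bases, divided by coding length or not, and by those measures and by coding coverage the MOLM13-labelled library was lowest. No subunit was called in any line. In the assembled complex the subunits are equimolar, and their coding coverage was within a factor of 2.19 in K562, 3.34 in the MOLM13-labelled library, 3.59 in THP-1 and 4.41 in HL60.

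TCP1, the alpha subunit (chromosome 6, 159778498-159789703, hg38), had the lowest coding coverage of the 8 in every library: 181 in K562, 104 in HL60, 104 in THP-1 and 103 in the MOLM13-labelled library. CCT6A, the zeta subunit, was second lowest in 3 of the 4 libraries. Of the 29-base windows in the coding sequences of TCP1 and CCT6A, 38.1% and 30.7% also occur in other genes, led by the pseudogenes TCP1P3 and CCT6P3, whereas CCT2 and CCT3 share none. The part of these shared windows in the low coverage was not tested. Small nucleolar RNA genes lie within both, and SNORA15 in CCT6A was listed at a scaled TPM of 658 in K562, 90.5 in the MOLM13-labelled library, 67.0 in HL60 and 39.3 in THP-1. TCP1 itself was highest in K562, with a scaled TPM of 494, compared with 254 in THP-1, 211 in the MOLM13-labelled library and 196 in HL60.

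CCT5, the epsilon subunit (chromosome 5, 10249929-10266389), departed most from the other 7. Its scaled TPM was 1476 in HL60, 947 in THP-1, 423 in K562 and 342 in the MOLM13-labelled library. HL60 and THP-1 were thus both above the other libraries, by 4.31-fold from highest to lowest, or 3.49-fold with the MOLM13-labelled library left out. In coding coverage it was 460 in HL60, 358 in THP-1, 225 in K562 and 168 in the MOLM13-labelled library, a 2.73-fold range. Relative to the median subunit of the same library, CCT5 stood at 1.45 in HL60, 1.43 in THP-1, 0.72 in K562 and 0.66 in the MOLM13-labelled library. The leading transcript also differed, a form of 1997 bases in HL60 and THP-1 and one of 3293 bases in K562 and the MOLM13-labelled library. This affects TPM and can also affect coding coverage, through the untranslated bases averaged within an exon. Without the MOLM13-labelled library, CCT5 would be called, low in K562.

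The remaining CCT subunits varied less. CCT2 spanned 1.83-fold, CCT3 1.56-fold, CCT4 1.46-fold and CCT8 1.73-fold in scaled TPM. CCT4 and CCT7 were the steadiest within the complex, at 1.06 to 1.124 and 1.08 to 1.20 times the median subunit in coding coverage. CCT7 had its highest scaled TPM in the MOLM13-labelled library, at 1042, compared with 752 in K562, 661 in HL60 and 510 in THP-1. There 30.0% of its aligned bases were assigned to a retained-intron transcript, and by coding coverage HL60, at 380, and K562, at 378, were highest. Without the MOLM13-labelled library CCT7 spanned 1.47-fold in scaled TPM, with K562 highest.

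**Figure D3:**
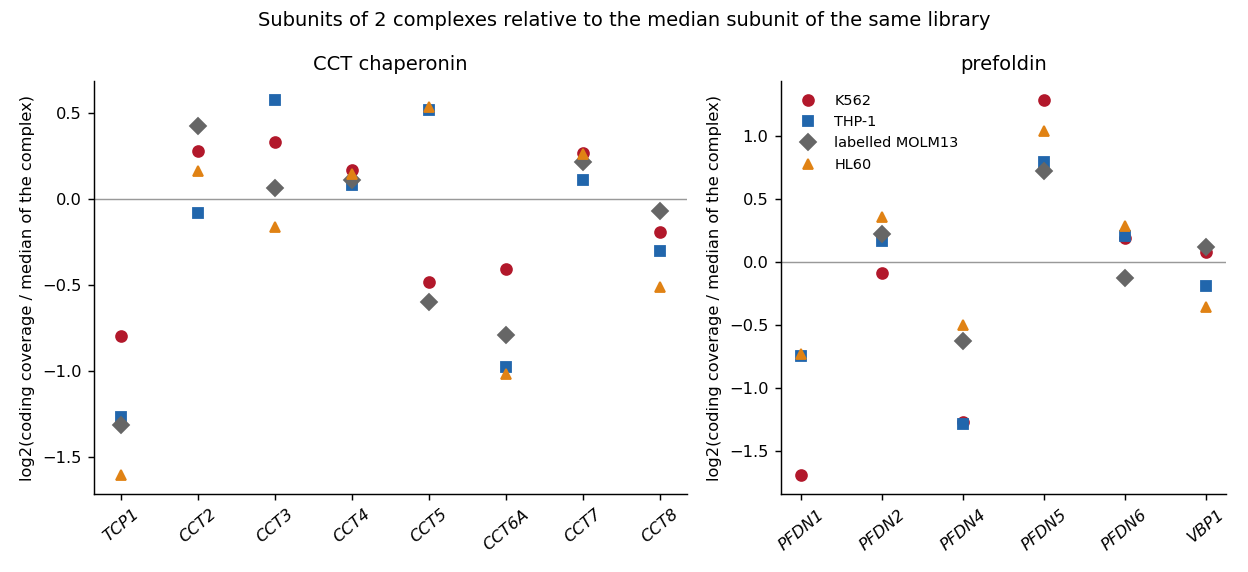
Coding coverage of each CCT subunit and each prefoldin subunit divided by the median subunit of the same complex in the same library, on a log2 axis, 1 symbol per library. CCT5 lies above the median in HL60 and THP-1 and below it in K562 and the MOLM13-labelled library, while TCP1 lies below it in all 4. PFDN1 of the MOLM13-labelled library is listed at 0 and is not drawn.

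Prefoldin is a jellyfish-shaped complex of the alpha-type subunits PFDN5 and VBP1 and the beta-type subunits PFDN1, PFDN2, PFDN4 and PFDN6. The 6 genes summed to a scaled TPM of 1303 in K562, 1296 in HL60, 951 in THP-1 and 552 in the MOLM13-labelled library. K562 exceeded the MOLM13-labelled library by 2.36-fold, or 1.24 on the log2 scale, and without that library the range was 0.45, between K562 and THP-1. With coding coverage HL60 was highest and the range was 2.07-fold.

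PFDN5 (chromosome 12, 53295291-53299452) had a scaled TPM of 526 in K562, 461 in HL60, 334 in THP-1 and 20.3 in the MOLM13-labelled library. Part of the signal at this locus was assigned to another gene. AC073611.1, a gene on the same strand that overlaps PFDN5, had a scaled TPM of 99.3 in the MOLM13-labelled library, against 20.0 in THP-1, 4.23 in K562 and 4.23 in HL60. The sum of both genes was 531 in K562, 465 in HL60, 354 in THP-1 and 120 in the MOLM13-labelled library, which remained the lowest. Counted by position over any transcript of that strand, coding coverage of PFDN5 was 352 in K562, 325 in HL60, 215 in THP-1 and 153 in the MOLM13-labelled library. On that measure the library is still the lowest, but the range from highest to lowest is 2.30-fold and not 25.9-fold, and PFDN5 had the highest coverage of the 6 subunits in each library.

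PFDN1 (chromosome 5, 140245035-140303113) had a scaled TPM of 69.9 in HL60, 58.1 in THP-1 and 40.6 in K562 and was listed at 0 in the MOLM13-labelled library. Of 1414 coding genes at 40 or more in the other 3 lines, 8 (0.566%) were listed at 0 there. An exact 0 in these tables can be a failed estimate, and no fold is given. The other 4 subunits, PFDN2, PFDN4, PFDN6 and VBP1, spanned 1.45-, 1.80-, 1.88- and 1.52-fold.

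HSPA8, the constitutive cytosolic HSP70 that also strips clathrin from vesicles, had the highest scaled TPM of the members in every library. In K562 HSP90AB1 exceeded it by coding coverage, at 858 against 837, and by share of the coding signal, at 0.634% against 0.489%. The scaled TPM of HSPA8 was 3672 in K562, 3430 in THP-1, 2832 in HL60 and 2348 in the MOLM13-labelled library. Among protein-coding genes it ranked 2 in K562, 5 in the MOLM13-labelled library, 6 in THP-1 and 12 in HL60. By coding coverage the order was HL60 at 1137, THP-1 at 1022, K562 at 837 and the MOLM13-labelled library at 665, so both measures put THP-1 second and the MOLM13-labelled library last, while K562 and HL60 changed places. Its leading transcript was a different one in each of the 4 lines, and 56.0% of its 29-base coding windows occur in other genes.

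HSPA1A and HSPA1B, the stress-inducible HSP70 genes, lie in tandem on chromosome 6 (31815543-31817946 and 31827738-31830254) and have nearly the same coding sequence. Their coding sequences of 1923 bases differ at 4 positions, G1710T, G1860C, C1905T and A1920G, counted from the A of the start codon with the HSPA1A base first. The last 2 of these fall within the reach of a single footprint, shown here as the GENCODE 29 coding bases 1892 to 1920 with the differing bases in capitals (GRCh38, plus strand, chr6:31817648-31817676 and chr6:31829842-31829870).
HSPA1A: ctgggtcaggcccCaccattgaggaggtA
HSPA1B: ctgggtcaggcccTaccattgaggaggtG
The first 1709 coding bases are the same in both genes, and 95.9% of the coding windows of HSPA1A are shared with HSPA1B, so how the authors' program divided footprints between them is uncertain and their sum is the firmer value.

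The summed scaled TPM of the pair was 199 in K562, 133 in the MOLM13-labelled library, 35.0 in THP-1 and 14.4 in HL60. K562 and the MOLM13-labelled library formed a high pair, and the lower of these was 3.80-fold above THP-1, the higher of the other lines. From K562 to HL60 the range was 13.8-fold, or 8.68-fold in coding coverage, with 6548 footprint equivalents behind the K562 value and 1142 behind that of HL60. HSPA1A alone had 104 in K562, 42.9 in the MOLM13-labelled library, 4.35 in THP-1 and 2.29 in HL60. In K562 89.9% of its signal was assigned to a transcript of 1909 bases, against one of 2400 bases in the other libraries, and its coding coverage was 25.1 in K562, 19.6 in the MOLM13-labelled library, 2.398 in THP-1 and 1.32 in HL60. The call of HSPA1A as high in K562 was lost by coding coverage, with deposited TPM and when genes sharing a coding window were added. HSPA1B had 94.7 in K562, 89.9 in the MOLM13-labelled library, 30.6 in THP-1 and 12.2 in HL60. Both genes gave the same order of lines, which is not a second observation because most of their coding windows are shared. The Poisson 95% intervals of HSPA1A did not overlap between any lines. Those of HSPA1B overlapped between K562 (91.6 to 97.8) and the MOLM13-labelled library (86.5 to 93.5). These intervals leave out the uncertain division of footprints between the genes. HSPA8 exceeded the pair by 196-fold in HL60 and 98.1-fold in THP-1, against 18.5-fold in K562 and 17.7-fold in the MOLM13-labelled library.

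**Figure D4:**
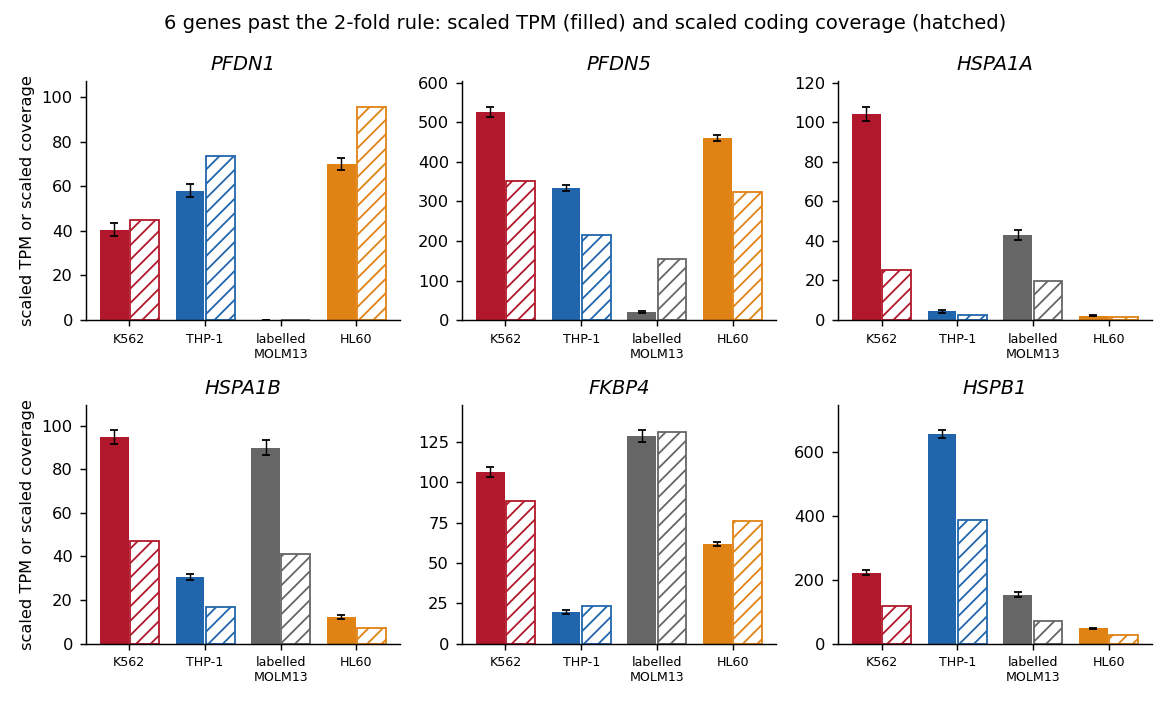
Scaled TPM (filled bars, with Poisson 95% intervals for counting error) and scaled coding coverage (hatched bars) of the 6 members past the 2-fold rule, by library, with axes from 0. For PFDN5 the MOLM13-labelled library stands at 20.3 in scaled TPM and at 153 in coding coverage.

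The remaining HSP70 genes were steadier. HSPA4 and HSPH1, members of the HSP110 class that exchange nucleotide on HSP70, spanned 1.79-fold, highest in K562 at 137, and 1.53-fold, highest in THP-1 at 114. HSPA9, the mitochondrial HSP70 known as mortalin, had a scaled TPM of 255 in HL60, 249 in THP-1, 146 in K562 and 124 in the MOLM13-labelled library. HL60 and THP-1 were close to each other and above the other libraries on this gene, by 2.05-fold from highest to lowest, or 1.75-fold with the MOLM13-labelled library left out. Retained-intron transcripts held 57.0% of its aligned bases in THP-1, 55.9% in HL60, 41.7% in K562 and 31.9% in the MOLM13-labelled library. By coding coverage HSPA9 spanned 2.11-fold, or 1.60-fold with that library left out. The family sum was 4239 in K562, 3907 in THP-1, 3253 in HL60 and 2795 in the MOLM13-labelled library, which is 1.52-fold between K562 and the MOLM13-labelled library. The top place depends on the scale, since THP-1 was highest with deposited TPM and HL60 with coding coverage and with aligned bases.

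HSP90AB1, the constitutive beta form of cytosolic HSP90 (chromosome 6, 44246166-44253888), had a scaled TPM of 2060 in K562, 1287 in the MOLM13-labelled library, 1277 in THP-1 and 898 in HL60. Its rank among protein-coding genes was 7 in K562, 30 in the MOLM13-labelled library, 46 in THP-1 and 91 in HL60. It alone took 0.634% of the coding signal in K562, against 0.373% in the MOLM13-labelled library, 0.335% in THP-1 and 0.248% in HL60. K562 was also highest by coding coverage, at 858, compared with 575.5 in THP-1, 467 in the MOLM13-labelled library and 455 in HL60. HSP90AA1, the inducible alpha form, varied less, with a scaled TPM of 721 in K562, 661 in the MOLM13-labelled library, 532 in THP-1 and 503 in HL60. The beta form exceeded the alpha form in each line, by 2.86-fold in K562, 2.4-fold in THP-1, 1.95-fold in the MOLM13-labelled library and 1.79-fold in HL60. In coding coverage these ratios were 2.37, 1.86, 1.57 and 1.42, in the same order of lines. Of the coding windows of HSP90AB1 and HSP90AA1, 53.1% and 61.3% occur in other genes, while their named pseudogenes held at most 1.91% and 3.90% of the signal of the parent gene.

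Within HSP90AB1 between 99.0 and 99.5% of the aligned bases were on 1 transcript of 12 exons, which allows its exons to be compared. Exon 1, of 95 bases and without coding sequence, was covered at 4.47 times the transcript's mean in THP-1, 4.02 times in the MOLM13-labelled library, 3.89 times in HL60 and 3.68 times in K562. Exon 8 was covered at 0.41 to 0.46 times the mean. The profile over the 12 exons correlated between pairs of libraries with Pearson's r from 0.93 to 0.99, a description in which the libraries share the exon sequences and the preparation kit. It had the highest median r, 0.97, of the 8 members whose signal lay on 1 transcript in this way, and the lowest were HSPA4, at 0.37, and DNAJA2, at 0.44. Exon 1 of HSP90AB1 lies far above its other exons and weighs heavily in its r and in this rank. Its r without exon 1 was not computed. Exon 8 was alike in the libraries, but exon 9 was at 1.01 times the mean in the MOLM13-labelled library and 1.89 times in HL60. Coding coverage leaves exon 1 out.

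**Figure D5:**
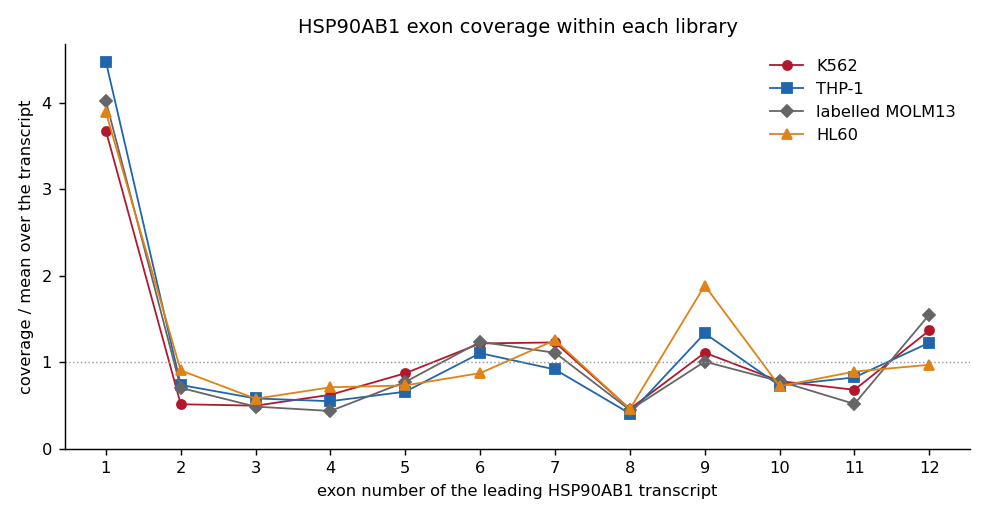
Coverage of each exon of the leading HSP90AB1 transcript divided by the mean over that transcript, by exon number, 1 line per library. Exon 1, which holds no coding bases, is 3.68 to 4.47 times the mean in the 4 libraries, and exon 8 is the lowest in THP-1, K562 and HL60.

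TRAP1, the mitochondrial HSP90, followed another order. Its scaled TPM was 190 in HL60, 176 in K562, then 93.4 in THP-1 and 57.8 in the MOLM13-labelled library. HL60 exceeded the MOLM13-labelled library by 3.29-fold, or 4.06-fold in coding coverage, and without the MOLM13-labelled library the range was 2.04-fold, with THP-1 lowest. None of the coding windows of TRAP1 occur in another gene. The HSP90 family summed to 2957 in K562, 2006 in the MOLM13-labelled library, 1903 in THP-1 and 1591 in HL60, 1.86-fold from highest to lowest. K562 was the highest line for this sum with deposited TPM, with TPM rescaled over coding genes, by aligned bases, by coding coverage, with pseudogenes added and with the MOLM13-labelled library left out.

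The mitochondrial chaperonin genes HSPD1 (HSP60) and HSPE1 (HSP10) stand head to head on chromosome 2 and overlap on opposite strands. HSPD1 had a scaled TPM of 266 in HL60, 225 in the MOLM13-labelled library, 195 in K562 and 166 in THP-1, a 1.61-fold range. HSPE1 had 548 in K562, 380 in the MOLM13-labelled library, 337 in THP-1 and 299 in HL60, a 1.84-fold range in another order of lines. These levels are uncertain. Per the file headers no strand option was used, 70.1% of the coding windows of HSPD1 and 97.1% of those of HSPE1 occur in other genes, and 88.9 to 95.2% of the HSPE1 signal was assigned to a retained-intron transcript. Coverage fell along the HSPE1 coding segments, given here before scaling between libraries. It was 205 over the 165 bases of the second segment and 4.64 over the 48 bases of the fourth in K562. In HL60 these unscaled values were 188 and 3.16.

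Among the J-domain proteins, which deliver clients to HSP70 and trigger its ATPase, DNAJA1 was the most abundant. Its scaled TPM was 312 in K562, 289 in THP-1, 282 in the MOLM13-labelled library and 164 in HL60, so HL60 lay apart from 3 similar libraries. HSPA8 exceeded DNAJA1 by 17.3-fold in HL60, 11.9-fold in THP-1, 11.8-fold in K562 and 8.34-fold in the MOLM13-labelled library. DNAJB1, the stress-inducible HSP40, had 42.2 in THP-1, 33.3 in the MOLM13-labelled library, 28.7 in K562 and 21.3 in HL60. DNAJA2 spanned 1.44-fold, and DNAJC7, which binds both HSP70 and HSP90, spanned 2.25-fold with HL60 highest at 148. Without the MOLM13-labelled library, its lowest, DNAJC7 spanned 1.36-fold. DNAJB6, a suppressor of polyglutamine aggregation, had 6.49 in HL60 and 5.16 in THP-1 and was listed at 0 in K562 and the MOLM13-labelled library. For DNAJB6, 85.04% of the coding windows occur in other genes, 80.7% in AP001000.1 alone. Its named pseudogenes summed to a scaled TPM of 2.77 in the MOLM13-labelled library, 2.06 in K562, 1.18 in HL60 and 0.069 in THP-1. How footprints were divided between these genes was not tested.

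Of the HSP90 co-chaperones, FKBP4 (FKBP52), an immunophilin that binds HSP90 in steroid receptor complexes, varied most. Its scaled TPM was 129 in the MOLM13-labelled library, 106 in K562, 61.8 in HL60 and 19.7 in THP-1. THP-1 was the low line, 3.14-fold under HL60, its nearest neighbour, and the range was 6.52-fold in scaled TPM and 5.63-fold in coding coverage. Without the MOLM13-labelled library it was 5.404-fold, and THP-1 was still called low. AHSA1, which activates the HSP90 ATPase, had 313 in the MOLM13-labelled library, 297 in K562, 173 in THP-1 and 121 in HL60. STIP1 (HOP), the bridge between HSP70 and HSP90, had 505 in the MOLM13-labelled library, 410 in K562, 315 in THP-1 and 287 in HL60. AHSA1 and STIP1 thus shared 1 order of lines. With the MOLM13-labelled library left out, K562 was highest and HL60 lowest for both, by 2.45-fold for AHSA1 and 1.43-fold for STIP1. CDC37, the kinase adaptor, spanned 1.69-fold with K562 highest at 159. On retained-intron transcripts lay 73.0% of its aligned bases in K562, 86.6% in THP-1 and 82.4% in HL60, but 0.547% in the MOLM13-labelled library. By coding coverage CDC37 spanned 1.62-fold, with K562 again highest. PTGES3 (p23), which stabilises the closed HSP90 dimer, spanned 1.959-fold with HL60 highest at 169, or 1.26-fold with the MOLM13-labelled library left out. The named pseudogenes of PTGES3 held up to 27.4% of its own signal, in THP-1.

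HSPB1 (HSP27), a small heat shock protein that binds unfolding clients without ATP, had the widest range of the members above 0 in all lines by coding coverage after HSPA1A. Its scaled TPM was 656 in THP-1, 222 in K562, 153 in the MOLM13-labelled library and 47.8 in HL60. THP-1 was 2.96-fold above K562, the next line, and HL60 was 3.20-fold under the MOLM13-labelled library, the next lowest. From THP-1 to HL60 the range was 13.7-fold in scaled TPM and 13.8-fold in coding coverage, and THP-1 and HL60, both high for CCT5, thus stood at opposite ends for HSPB1. BAG2, a nucleotide exchange factor of HSP70 that inhibits the ubiquitin ligase STUB1, was low throughout, with 14.9 in K562, 11.7 in the MOLM13-labelled library, 7.84 in HL60 and 7.81 in THP-1.

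Other genes of the same pathways were counted from 13 lists by the same 2-fold rule, with 37.6% of coding genes called as the background. Of the heat shock factors and their regulator, 3 of the 3 with enough signal were called. HSF1, the main activator of the heat shock response, had 23.3 in the MOLM13-labelled library, 11.1 in K562, 10.5 in THP-1 and 6.25 in HL60, and HSF2 had 30.4 in THP-1, 28.7 in the MOLM13-labelled library, 24.0 in K562 and 9.595 in HL60. HSF1 was called high in the MOLM13-labelled library and HSF2 low in HL60, and with that library left out HSF2 was still called and HSF1 and HSBP1 were not. HSBP1, a small protein that binds HSF1, was low in the MOLM13-labelled library at 19.4, compared with 66.7 in HL60, its nearest line.

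Of 11 partners in HSP70 exchange and quality control, 3 were called, BAG3, TTC4 and BAG1. BAG3, which links HSP70 to small heat shock proteins and autophagy, had 28.1 in K562, 23.7 in THP-1, 21.2 in the MOLM13-labelled library and 4.14 in HL60. It was lowest in HL60, the lowest line of 15 of the 37 members. BAG1 was high in THP-1 at 63.1, against 29.6 in HL60, 6.25 in K562 and 5.12 in the MOLM13-labelled library, and TTC4 was low in THP-1. Both ranges were much smaller by coding coverage. With the MOLM13-labelled library left out, BAG1 spanned 10.1-fold in scaled TPM but 2.58-fold in coding coverage. TTC4 then spanned 236-fold in scaled TPM but 2.0999-fold in coding coverage. Other J-domain proteins had 7 of 20 called, and other HSP90 co-chaperones 4 of 16, including SUGT1, a partner of HSP90 at kinetochores and in immune sensing, with 87.8 in HL60, 82.2 in THP-1, 24.1 in the MOLM13-labelled library and 7.82 in K562. For SUGT1 the range without the MOLM13-labelled library was 11.2-fold in scaled TPM but 1.25-fold in coding coverage.

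Among 13 mitochondrial partners with enough signal, 4 were called. GRPEL2, a nucleotide exchange factor of HSPA9, had 58.7 in HL60, 8.12 in THP-1, 3.29 in the MOLM13-labelled library and 2.27 in K562. Without the MOLM13-labelled library its range was 25.8-fold in scaled TPM but 6.19-fold in coding coverage. Of 10 chaperonin and prefoldin-like partners, 1 was called, PDCL, a phosducin-like protein that assists CCT, with 27.2 in the MOLM13-labelled library and 13.003 in K562, its nearest line. Without the MOLM13-labelled library PDCL was not called. Of 18 clients of the chaperonin, 6 were called. TUBB6, a beta tubulin, had 214 in THP-1, 82.6 in K562, 62.4 in the MOLM13-labelled library and 4.56 in HL60. Among ribosome-bound chaperones 2 of 6 were called. DNAJC2, the J-domain partner of HSP70 at the ribosome, had 60.8 in K562, 21.9 in the MOLM13-labelled library, 18.5 in HL60 and 6.62 in THP-1. The HSP70-like HSPA14 of the same complex had 106 in the MOLM13-labelled library, 48.9 in K562, 45.0 in THP-1 and 18.3 in HL60, and without the MOLM13-labelled library it was called low in HL60. Small heat shock proteins had 2 of 4 called, tubulin cofactors 1 of 6 gene entries, and other HSP70 genes 1 of 6.

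Heat shock factors bind repeats of the unit GAA in alternating orientation, and the bases before the start sites of the members show where such repeats stand. RefSeq start windows (GRCh38.p14, 250 bases before each start) were matched for 34 of the 37 members, with 48 windows, and none for PFDN2, FKBP4 and CCT6A. On either strand the 3-unit motif GAANNTTCNNGAA, or TTCNNGAANNTTC read from the other strand, was found before HSPA8, HSP90AA1, HSP90AB1, HSPD1 and DNAJB6. It occurs in 0.441% of all 35116 windows and in 10.4% of the members' windows. The 2-unit motif GAANNTTC, which reads the same on both strands and is part of each 3-unit match, was found before 14 members, HSPA1A, HSPA1B, HSPB1 and DNAJB1 among them. It occurs in 5.78% of all windows and in 31.25% of the members' windows. The 2-unit arrangement that begins with TTC was not searched on its own.

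The matches that overlap no annotated exon are shown 5′ to 3′ with their surroundings and with the motif in capitals. The first 3 hold 3-unit motifs and the next 4 the 2-unit motif. For HSPA8 and HSPD1 the matches overlap exons of the same gene and are given without surroundings. The HSPA8 bases are a single 3-unit motif, and the HSPD1 bases are 2 overlapping 3-unit motifs. The 2-unit matches of CCT2, TCP1, DNAJA1, PFDN6 and BAG2, which overlap exons, are not shown. The matches shown with surroundings lie at chr6:44247763-44247858 (plus strand), chr14:102087105-102087147 (minus), chr7:157336858-157336900 (plus), chr6:31815422-31815459 (plus), chr6:31827618-31827655 (plus), chr7:76302476-76302513 (plus) and chr19:14518422-14518489 (minus).
HSP90AB1: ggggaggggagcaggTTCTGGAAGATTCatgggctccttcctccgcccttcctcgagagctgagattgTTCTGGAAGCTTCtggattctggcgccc
HSP90AA1: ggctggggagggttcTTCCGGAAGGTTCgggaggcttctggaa
DNAJB6: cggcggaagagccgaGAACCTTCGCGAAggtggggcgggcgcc
HSPA1A: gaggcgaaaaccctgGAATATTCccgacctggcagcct
HSPA1B: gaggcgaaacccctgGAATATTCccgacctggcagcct
HSPB1: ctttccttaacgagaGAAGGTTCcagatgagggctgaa
DNAJB1: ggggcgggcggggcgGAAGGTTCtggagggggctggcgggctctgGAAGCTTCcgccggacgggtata
HSPA8: TTCTGGAAGGTTC
HSPD1: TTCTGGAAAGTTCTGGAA

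The motif of HSPA1A begins 106 bases before its start and that of HSPA1B 105, in near-identical surroundings, whereas the motif of HSPB1 begins 182 bases before the start. The closer HSPA8 motif begins 55 bases before the start, and that of HSP90AA1 88 bases. Of the 14 genes with a 2-unit match, which include the 5 with a 3-unit match, 3 were past the 2-fold rule, HSPA1A, HSPA1B and HSPB1, beside 6 of all 37 members and 37.6% of coding genes. PFDN1 and PFDN5 had no match to the motifs searched in these windows. A match is a description of letters, and factor binding was not measured here.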

How the data were processed

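Ribosome footprints of 4 leukemia cell lines were measured in 1 library each. The submitters' processing notes name the hg38 build, StringTie 2.1.5, STAR 2.7.8a, Bowtie2 2.4.2 and Trim Galore 0.6.6. Per the file headers, StringTie estimated the GENCODE 37 transcripts without adding new ones and without a strand option, and the deposited values are coverage per base and TPM for each transcript. Here TPM was summed per gene and divided by the library's median ratio over 3751 genes with TPM of at least 10 in all 4 libraries. Aligned bases are coverage times length. Coding coverage used GENCODE 29 coding regions. Intervals (Poisson, Wilson, 95%) cover counting error only, and amplified footprints are not independent molecules. With no replicates no test was made. A pseudocount of 1 and a minimum of 600 aligned bases were used. The rule for named genes was all 37 members and, in each list, at most 3 called genes with the largest distance. Members and lists were chosen with earlier results of these data known. The scripts were tested on simulated data. Computation used pandas 2.3.3, NumPy 2.4.6, SciPy 1.17.1, statsmodels 0.14.6 and Matplotlib 3.10.9 under Python 3.11.15.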

Additional observations from a re-analysis of the deposited data

How the results depend on the processing

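The differences between the lines named here kept their sign under each alternative run, but the highest line did not stay K562. It became HL60 for CCT with deposited TPM and with aligned bases, divided by coding length or not, HL60 for prefoldin with these and with coding coverage, and for HSP70 THP-1 with deposited TPM and HL60 with aligned bases, divided or not, and coding coverage. On the log2 scale, the CCT sum was 0.30 higher in K562 than in THP-1, and this was 0.0185 with deposited TPM, 0.65 with TPM rescaled over coding genes, 0.32 with aligned bases not divided by length, 0.33 with coding coverage, 0.32 with aligned bases per coding base and 0.57 as a median over members. For prefoldin, 1.24 higher in K562 than in the library labelled MOLM13, the deposited, rescaled, coding coverage, per coding base and median values were 0.82, 1.30, 0.84, 1.31 and 1.29, and 0.45 over THP-1 with the library labelled MOLM13 left out. For HSP70, 0.60 between the same libraries, the values were 0.18 deposited, 0.66 rescaled, 0.35 by bases, 0.32 by coding coverage, 0.36 per coding base, 0.35 as a median, and 0.38 over HL60 with that library left out. For HSP90, 0.89 higher in K562 than in HL60, they were 0.57, 1.23, 0.58, 0.55, 0.58 and 0.52 for deposited, rescaled, bases, coding coverage, per coding base and median. The members called numbered 6, against 2 at 4-fold and 13 at 1.5-fold, beside 62.4% of coding genes. Leaving out the library labelled MOLM13 gave 6, namely CCT5, HSPA1A, HSPA1B, DNAJB6, FKBP4 and HSPB1, beside 46.6% of coding genes instead of 37.6%. The measure of aligned bases per coding base was chosen after seeing the data. The cause of these shifts was not tested. No paired analysis was possible because each line has 1 library, which also leaves no replicate to omit.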
